A study of Mus musculus with 6 samples.

Results

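Pericytes and smooth muscle cells of the vessel wall, together called mural cells, were selected on their transcripts from single-cell libraries of the injured and repaired mouse rotator cuff enthesis, the site where tendon attaches to bone. A barcode was kept as a cell when it held at least 2000 UMIs (unique molecular identifiers, each one captured RNA molecule), at least 200 genes and at most 10% mitochondrial UMIs. A cell was chosen as mural when it held at least 3 UMIs of Rgs5 and Myh11 together, at least 2 of Notch3 and Acta2 together, none of Cdh5 or Ptprc, fewer than 10 of Postn, Aspn and Prg4 together, and under 1% of its UMIs from S100a8 and S100a9. These 11 genes are given by their values and were not tested. The rule found 202 members among 64599 cells.

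Mural cells wrap the endothelial tube of small vessels. Pericytes sit on capillaries within the basement membrane they share with the endothelium, while smooth muscle cells ring arterioles and venules and contract through smooth muscle actin and myosin. Endothelial PDGF-BB recruits both through the receptor Pdgfrb, and Notch3 signalling maintains them. Tendon and the fibrocartilage of its attachment hold few vessels.

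The supraspinatus tendon of mice aged 12 to 14 weeks was cut from the humeral head and sutured back, and entheses were taken 7 days post-injury. The study names C57BL/6 for its wild type mice. Its knockout mice came from another supplier, with no strain stated, so supplier and genotype cannot be told apart. The study's methods say that entheses were pooled, and its figure legend gives n = 3 for wild type and n = 3 for knockout mice. How many animals each library holds, and their sex, are not given in the sources used here. There were 3 wild type and 3 Nlrp3 knockout libraries; the knockout is global, so all cell types lack the allele, and it was compared with wild type mice that carry no other stated allele. The titles name Nlrp3 for all knockout libraries and were followed, although the genotype field of knockout libraries 2 and 3 names Nlrp4 and Nlrp5.

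The members numbered 35, 51 and 9 in wild type libraries 1, 2 and 3 and 48, 19 and 40 in knockout libraries 1, 2 and 3. They held 82470 to 434423 UMIs per library, 1445437 in all, with a median of 4073 to 9182 UMIs and 1883.5 to 3251 genes per cell. Of the member barcodes, 4 also named a cell in another library and 0 named a member there. Over all cells, Nlrp3 stood at 60.6, 98.7 and 97.9 CPM (counts scaled to a common library total) in the wild type libraries and had 0 UMIs in each knockout library. Among members it gave 6 UMIs in the wild type and none in the knockout, so it could not be compared there. Xist, the RNA that silences one X chromosome in females, was at 0 CPM in the wild type members and at 1009, 1406 and 1050 CPM in the knockout members, while the Y-linked helicase gene Ddx3y stood at 102, 57.5 and 109 CPM against 0 in each knockout library. Sex and genotype therefore cannot be told apart in any comparison of the groups. Wild type library 3 had the fewest members and the most fibroblast RNA among them. Members were compared with 3 other classes, chosen in the same way. Endothelial cells held at least 2 UMIs of Cdh5 and 1 of Pecam1 and none of Ptprc. Fibroblasts held at least 1 UMI of Pdgfra and 10 of Col1a1 and Col3a1 together, and none of Cdh5 or Ptprc. Both held fewer than 3 UMIs of Rgs5 and Myh11 together and met the S100a8 and S100a9 limit, and leukocytes held at least 1 UMI of Ptprc.

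The genes that chose the members were high in every library. Rgs5, a regulator of G-protein signalling that marks pericytes, stood at 6960, 5363 and 7566 CPM in the wild type and 4329, 7102 and 9534 in the knockout libraries. Acta2, smooth muscle actin, stood at 5837, 3748 and 8185 against 5133, 11934 and 7991. Notch3, the mural Notch receptor, stood at 686, 497 and 922 against 719, 919 and 874. Myh11, smooth muscle myosin heavy chain, stood at 468, 329 and 728 against 549, 1427 and 840. The genotype groups overlapped for each of these 4 genes, and their endothelial medians were 5.27, 68.4, 1.47 and 0.306 CPM in that order. Of the genes the rule kept low, Aspn stood at 300.5, 315 and 218 CPM against 607, 578 and 587, without overlap. Prg4, with 19 UMIs in all, stood at 0, 4.6 and 0 against 42.5, 20.9 and 12.9, also without overlap. Postn stood at 328, 387 and 291 against 437, 230 and 471, with overlap. S100a8 stood at 121 to 359 against 202 to 394, and S100a9 at 145.5 to 427 against 265 to 557. Cdh5 and Ptprc were at 0 by the rule.

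Several genes the rule did not use carried the same identity. Higd1b, a mitochondrial protein gene typical of pericytes, had a median of 390.3 CPM over the 6 libraries of members (121 to 569.9), against 0.2 in endothelial cells and in fibroblasts. The subunits of soluble guanylate cyclase, the nitric oxide receptor, stood at medians of 293.7 CPM for Gucy1a1 and 187 for Gucy1b1, against 3.87 and 1.72 in endothelial cells. Des, the intermediate filament desmin, had a median of 384 CPM against 7.5 in fibroblasts. Ndufa4l2 and Cox4i2, alternative respiratory chain subunits of oxygen-sensing cells, stood at 927 and 244 CPM. Abcc9 and Kcnj8, which together form the vascular ATP-sensitive potassium channel, stood at 369 and 162 CPM. Pdgfrb was at 650.1 CPM, 546 to 822 per library, against 149 in fibroblasts and 9.26 in endothelial cells. Every one of these genes was higher in members than in the other classes in all 6 libraries. Not every listed gene was. Among the pericyte genes, Anpep stood at 17.1 to 36.4 CPM in members against a fibroblast median of 85.4. Mcam stood at 262 to 740 CPM against an endothelial median of 487. Smtn, of the contractile list, stood at 27.3 to 48.5 CPM in the wild type members against an endothelial median of 61.5. Sorbs2, of the same list, stood at 44.4 to 48.5 CPM in the wild type members and 150.0 to 453 in the knockout members. Its endothelial median was 165.6 CPM. Since the members were chosen by expression of mural genes, these levels are a description and were not tested.

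**Figure D1:**
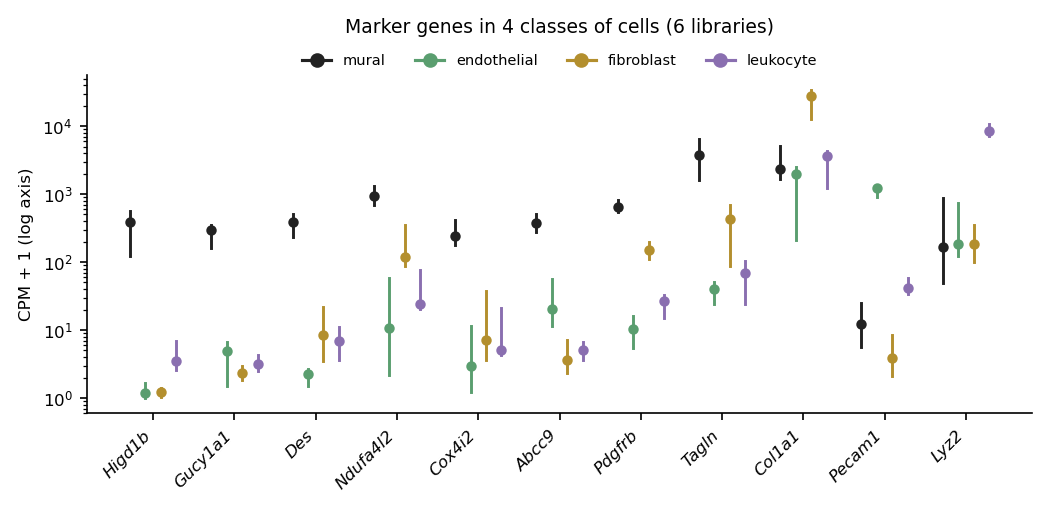
Levels of genes outside the rule in mural cells, endothelial cells, fibroblasts and leukocytes, as CPM + 1 on a log axis; points are medians over 6 libraries and lines run from the lowest to the highest library. Mural markers on the left stand far above the other classes, with Higd1b at a median of 390.3 CPM in members and 0.2 in endothelial cells, while Col1a1 and Pecam1, which helped to choose fibroblasts and endothelial cells, peak there and Lyz2 peaks in leukocytes.

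Barcodes of at most 100 UMIs, which hold free RNA, carried Rgs5 at 101 and Higd1b at 6.49 CPM. With each cell thinned to 2000 UMIs, Higd1b was found in 46.0% of members, 0.05% of endothelial cells and 0.04% of fibroblasts. Des was found in 46.0%, 0.39% and 2.0%, and Rgs4 in 27.2%, 1.12% and 4.21%. Of other cell types, the endothelial adhesion gene Pecam1 stood at 4.6 to 24.3 CPM in members. The endothelial markers summed to 172.6 to 303 CPM in the wild type and 146 to 158.5 in the knockout, without overlap, against 7201 in endothelial cells. Of these, Flt1 alone stood at 116, 99.0 and 255 CPM against 50.2, 55.7 and 90.0, without overlap, whereas Pecam1 and Emcn overlapped. The sum was not tested. Of 10 skeletal muscle markers 4 (Acta1, Ckm, Tnnt3 and Tnnc2) were at 0 UMIs, and the list summed to 291 to 516 CPM against 282 to 497, most of it from Des, which mural cells share. Its member Myl1 had 26 UMIs, at up to 48.7 CPM in knockout library 2, and Pax7 had 3. Summed over 12 fibroblast markers, members held 5182 to 12950 CPM in the wild type and 7018 to 9288 in the knockout, against 65199 in fibroblasts. Macrophage markers summed to 84.9 to 605 CPM against 229.8 to 1326, the highest in knockout library 1, and erythroid markers to 17.1 to 562 against 34.8 to 2322, the highest in knockout library 3. Of the Hbb-bs UMIs of all members, 89.0% came from 1 cell. The part of these markers in the results below was not tested.

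The limit on Postn, Aspn and Prg4 left out more cells than the rule kept. Without it, 885 cells met every other criterion, so 683 were left out by it. Those 683 cells held Higd1b at 377 CPM against 406 in the members, Des at 365 against 412, and Ndufa4l2 at 839.8 against 988. They differed in depth, with a median of 11201 UMIs against 6080, and in Col1a1, at 9113 against 2554 CPM. The 140 members with 5 to 9 such UMIs held Higd1b at 462 CPM, and the 306 cells with 10 to 20 held it at 455. Between the same cells Gucy1a1 went from 328 to 234 CPM and Col1a1 from 2725 to 4088. At the Rgs5 and Myh11 limit Gucy1a1 stood at 246 CPM in the 18 members with 3 or 4 UMIs and at 15.2 in the 39 cells with 1 or 2, and Higd1b at 51.9 and 19. Des and Col1a1 showed no such step there, at 90.7 and 99.0 CPM and at 7454 and 7392. Those 18 members thus held Higd1b and Des well below the levels of all members. At the Notch3 and Acta2 limit Gucy1a1 stood at 340.5 CPM in the 23 members with 2 or 3 UMIs and at 75.2 in the 20 cells with 0 or 1. The genotype comparisons were therefore also run on all 885 cells.

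No difference in the number of mural cells was detected between genotypes. They made up 0.348%, 0.41% and 0.108% of the cells in the wild type libraries and 0.421%, 0.187% and 0.328% in the knockout libraries. The means were 0.289% ± 0.160 and 0.312% ± 0.118 (SD, n = 3 libraries each), and an exact two-sided permutation test gave p = 0.9, where the smallest p for 3 against 3 is 0.1. The single shares carried wide 95% Wilson intervals, from 0.0567 to 0.205% in wild type library 3 up to 0.318 to 0.558% in knockout library 1, which cover counting error only. Among cells without Ptprc the share was 0.854% ± 0.439 against 0.793% ± 0.207 (exact permutation test, p = 0.8, n = 3 each). There were 0.104, 0.0878 and 0.0425 mural cells per endothelial cell in the wild type and 0.0825, 0.0625 and 0.0739 in the knockout, with geometric means of 0.0728 and 0.0725 (exact permutation test on the log2 ratio, p = 1.0, n = 3 each). Wild type library 3 was lowest on all of these measures. Without it the difference in the share of all cells turned from 0.0236 to -0.0668 percentage points, knockout minus wild type, and without knockout library 1 it was -0.0311. Among cells without Ptprc the difference went from -0.0611 to -0.310 points without wild type library 3 (exact permutation test, p = 0.2, n = 2 and 3). Without that library the log2 difference in mural cells per endothelial cell went from -0.006 to -0.40 (exact permutation test, p = 0.2, n = 2 and 3), with both other wild type libraries above all 3 knockout libraries.

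**Figure D2:**
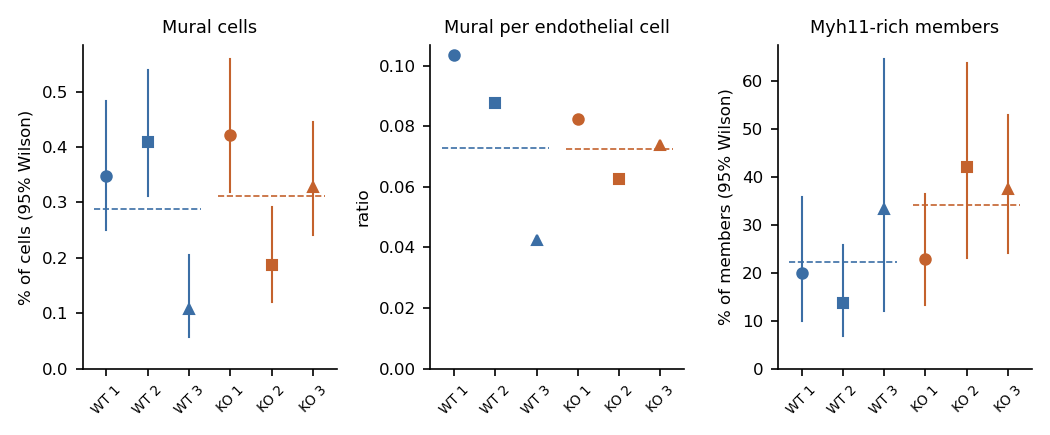
Share of mural cells among all cells, mural cells per endothelial cell, and share of Myh11-rich cells among members after thinning, for each wild type (WT, blue) and knockout (KO, orange) library; vertical lines are 95% Wilson intervals and dashed lines group means (geometric for the ratio). The groups overlap on all 3 measures, and wild type 3 is the lowest on the first 2, with 0.108% and 0.0425.

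The members differed in their Myh11. Of the 202, 79 held at least 3 Myh11 UMIs and are called Myh11-rich, 61 held at least 3 Rgs5 and no Myh11 UMIs and are called Myh11-negative, and 62 were neither. Every library had both, from 6 to 18 Myh11-rich and from 2 to 20 Myh11-negative cells. Since the ends were chosen by these genes, their differences are described and not tested. The Myh11-rich cells were deeper in 4 of 6 libraries, most of all in wild type library 3, at a median of 10058.5 UMIs against 4772.5, and in knockout library 1, at 5934 against 2976.5. The part of depth in the split was not tested.

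Of 23 listed contractile genes outside the rule, 22 were higher in the pooled Myh11-rich cells and 19 were higher there in 6 of 6 libraries, beside 4460 and 381 of 8711 genes in all. The exception was Des, the intermediate filament desmin, at 364 CPM against 421 in the Myh11-negative cells. Tagln, the actin-binding protein transgelin, stood at 6269 CPM over the pooled Myh11-rich cells (3720 to 9911 per library) and at 702 in the Myh11-negative cells (203 to 1012). Cnn1, calponin, which restrains the actomyosin ATPase, stood at 190 against 2.81 CPM, and Pln, phospholamban, the brake on the calcium pump of the sarcoplasmic reticulum, at 209 against 0. Ppp1r12b, a targeting subunit of myosin phosphatase, stood at 211 against 25.3, and Synm, the intermediate filament protein synemin, at 140.1 against 2.81. Mustn1, a small nuclear protein of muscle and skeletal tissue, stood at 1253 against 112 CPM. All of these were higher at the Myh11-rich end in 6 of 6 libraries. Eln, the elastin of arterial walls, stood at 863 against 28.1 CPM, also in 6 of 6, although 39.5% of its UMIs over all members came from 1 cell. Nrip2, a nuclear receptor-interacting protein, stood at 198 against 11.2. Genes better known from other cells were also at this end, in 6 of 6 libraries each. Acan, the cartilage proteoglycan aggrecan, stood at 178 against 2.81 CPM, and Cd93, a surface receptor of endothelial cells, at 140.1 against 22.5. Their part in the split was not tested.

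The pericyte list was divided between the ends. Of 21 listed genes outside the rule, 13 were higher in the pooled Myh11-negative cells, 5 of them in 6 of 6 libraries, and 8 were higher in the Myh11-rich cells, 1 of them in 6 of 6. Over all 8711 genes, 4251 were higher in the Myh11-negative cells, 140 of them in 6 of 6. Both genes of the potassium channel were higher at the Myh11-negative end. Kcnj8 stood at 272 CPM against 69.3 in the Myh11-rich cells, and Abcc9 at 562 against 184, each higher in 6 of 6 libraries. Steap4, a metalloreductase, stood at 409.9 against 107, and Cygb, the globin cytoglobin, at 489 against 173, both in 6 of 6. Fst, the activin antagonist follistatin, stood at 124 against 37.8, and Adra2a, an adrenergic receptor, at 185 against 67.7, both in 6 of 6. Mmp13, a collagenase, and Cxcl10, a chemokine induced by interferon, were each higher at this end in 4 of 6 libraries, but 53.2% and 52.1% of their UMIs over all members came from 1 cell each. Genes also known from fibroblasts were among those at this end. Cdh11, a cadherin, stood at 84.2 against 25.2 CPM and was higher in 5 of 6 libraries. Fap, fibroblast activation protein, stood at 70.2 against 23.6, in 4 of 6, and Gas1, a membrane protein of growth arrest, at 236 against 97.6, in 5 of 6. Their part in the split was not tested. Rgs5 itself did not follow the split, at 5874 CPM in the Myh11-rich and 5988 in the Myh11-negative cells, and Ndufa4l2 stood at 985 and 868. Rgs4 stood at 229.8 and 98.3 CPM.

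**Figure D3:**
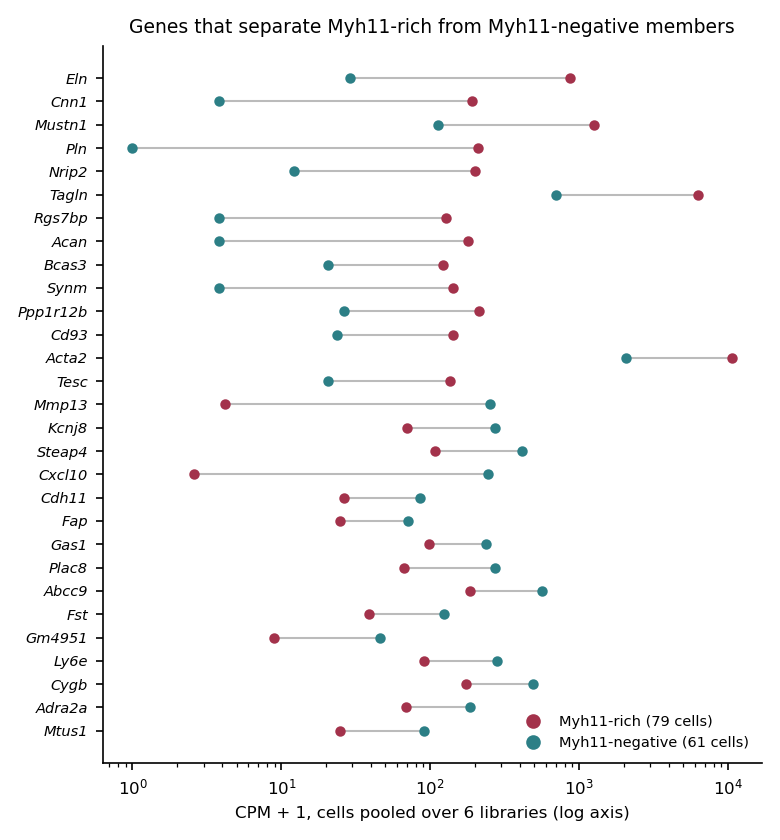
Genes with the largest median log2 ratio between the ends, as CPM + 1 pooled over the libraries on a log axis; red points are the 79 Myh11-rich and teal points the 61 Myh11-negative cells. Contractile genes such as Cnn1 (190 against 2.81 CPM) lie in the upper part, and genes higher in the Myh11-negative cells such as Abcc9 (184 against 562) in the lower part.

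The promoters of the listed contractile genes were searched for the CArG box, the motif that serum response factor binds. The motif reads the same on both strands, so 1 search covered both. It was in the 300 bases around a start site (250 before, 50 after) of 4 of 21 contractile genes with a RefSeq promoter, or 19%, against 1.81% of 27025 genes in all and 1 of 17 pericyte genes. The 4 were Myl9, Myl6, Ldb3 and Srf. A match is a description and not a shown site. The promoters of Myl9, a myosin light chain, and of Srf, the factor itself, are shown, the first because it is a contractile gene abundant in the members and the other because it holds the box in 2 copies. The 250 bases before the start site are given (RefSeq, GRCm38.p6), Myl9 at chr2:156775214-156775463 on the plus strand and Srf at chr17:46556163-46556412 on the minus strand, 5′ to 3′, with capitals marking each box, which begins at position -161 for Myl9 and at -82 and -62 for Srf.
Myl9: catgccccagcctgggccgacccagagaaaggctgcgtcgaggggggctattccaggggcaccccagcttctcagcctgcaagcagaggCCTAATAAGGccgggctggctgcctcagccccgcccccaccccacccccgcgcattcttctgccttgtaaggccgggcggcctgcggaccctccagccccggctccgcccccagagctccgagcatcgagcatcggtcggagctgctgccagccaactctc
Srf: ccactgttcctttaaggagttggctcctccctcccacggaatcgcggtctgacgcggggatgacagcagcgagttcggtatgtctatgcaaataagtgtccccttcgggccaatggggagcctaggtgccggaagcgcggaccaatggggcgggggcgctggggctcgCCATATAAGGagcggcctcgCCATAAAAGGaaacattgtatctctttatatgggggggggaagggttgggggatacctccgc
Myl9 stood at 1236, 921 and 1261 CPM in the wild type members and 812, 2137 and 1273 in the knockout members, and Srf gave 33 UMIs in all.

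The shares of Myh11-rich and of dividing cells were taken after each member was thinned to 2000 UMIs. Since Myh11 belongs to the rule, the first is a description with no test. With at least 2 Myh11 UMIs as the limit, Myh11-rich cells made up 20%, 13.7% and 33.3% of members in the wild type and 22.9%, 42.1% and 37.5% in the knockout. The means were 22.4% ± 10.0 and 34.2% ± 10.0 (SD, n = 3 libraries each), and the groups overlapped. With at least 1 Myh11 UMI after thinning the difference was 16.8 percentage points. Unthinned, with at least 3 UMIs, the shares were 37.1%, 29.4% and 66.7% against 35.4%, 52.6% and 45%, and the difference was -0.0577 percentage points. Dividing cells, with at least 2 UMIs of 9 mitotic genes, made up 17.1%, 25.5% and 11.1% in the wild type and 18.8%, 10.5% and 10.0% in the knockout. The means of 17.9% ± 7.22 and 13.1% ± 4.91 did not differ beyond the spread (exact permutation test, p = 0.5, n = 3 each). Unthinned, they were 28.6%, 35.3% and 33.3% against 22.9%, 15.8% and 17.5%, without overlap, a difference of -13.7 points (exact permutation test, p = 0.1, the smallest possible, n = 3 each). Median depth was lowest in knockout library 1, and the part of depth in the unthinned shares was not tested.

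UMIs of the members were then summed per library and tested gene by gene between genotypes with edgeR's quasi-likelihood test. Of 4025 genes tested outside the rule, 15 passed a Benjamini-Hochberg adjusted p of 0.05, or 0.373%, with 9 higher and 6 lower in the knockout. At an unadjusted p of 0.05, 657 genes passed, and in 19.7% of genes the 3 wild type and 3 knockout libraries did not overlap. Since members are few and sums pool cells of both ends, fewer cells of a kind and less RNA per cell cannot be told apart here. The count rested on single libraries. It was 1 without wild type library 1, 5 without wild type library 2, 154 without wild type library 3, 38 without knockout library 1, 2 without knockout library 2 and 10 without knockout library 3.

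Of the 9 genes that rose in the knockout members, Rgs4, Palld and Sorbs2 had the most UMIs after Xist. Rgs4, a regulator of G-protein signalling whose gene (chr1:169741477-169747642, GRCm38, GENCODE M21) lies next to that of Rgs5 (chr1:169655501-169695813), stood at 71.7, 85.2 and 72.8 CPM in the wild type and 298, 439 and 219 in the knockout. All 3 knockout libraries lay above all wild type libraries, and the log2 difference was 1.90 (SE 0.30, edgeR adjusted p = 0.0136). Palld, palladin, an organiser of actin bundles, stood at 130, 140.4 and 146 against 390.4, 487 and 399 CPM, a log2 difference of 1.53 (SE 0.23, adjusted p = 0.0135). Sorbs2, an adaptor at stress fibres and Z-discs, stood at 44.4, 48.3 and 48.5 against 186, 453 and 150.0 CPM, a log2 difference of 2.31 (SE 0.41, adjusted p = 0.0354). Rgs4 and Sorbs2 each passed in 12 of 19 alternatives and Palld in 13 of 19, with highest adjusted p-values of 0.329, 0.255 and 0.455. Each of the 3 calls was lost without wild type library 1 (adjusted p = 0.247, 0.249 and 0.254 for Rgs4, Palld and Sorbs2), without wild type library 2 and without knockout library 2, and kept its direction.

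Cdh6, Fgl2, Col4a5 and Rnf152 also rose. Cdh6, the adhesion molecule K-cadherin, stood at 10.2, 11.5 and 12.1 CPM in the wild type and 61.8, 125 and 60.0 in the knockout (log2 difference 2.65, SE 0.48, edgeR adjusted p = 0.0354). Fgl2, a fibrinogen-like protein, stood at 17.1, 27.6 and 48.5 against 120, 334 and 124 CPM (log2 difference 2.67, adjusted p = 0.0354). Col4a5, a basement membrane collagen chain encoded on the X chromosome, stood at 10.2, 4.6 and 24.3 against 50.2, 104 and 64.3 CPM (log2 difference 2.80, adjusted p = 0.0497). Rnf152, a lysosomal ubiquitin ligase, stood at 6.83, 4.6 and 0 against 58.0, 62.7 and 55.7 CPM (log2 difference 3.34, adjusted p = 0.0242). These 4 genes rested on few molecules, with 50, 41, 57 and 129 UMIs over all members for Col4a5, Rnf152, Cdh6 and Fgl2. All 4 calls were lost without wild type library 1, wild type library 2 or knockout library 2. The remaining 2 genes were Xist and Gm8797, a predicted gene named after its values were seen. Gm8797 also rose in fibroblasts (log2 difference 3.14, edgeR adjusted p = 0.0086) and in endothelial cells (2.79, adjusted p = 0.0013).

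Among the 6 genes that fell was Ifi27l2a, a mitochondrial protein gene induced by interferon, at 140, 161 and 121 CPM in the wild type and 38.7, 0 and 34.3 in the knockout (log2 difference -2.46, SE 0.45, edgeR adjusted p = 0.0385). Tspan4, a tetraspanin of migrating cells, stood at 242, 168 and 206 against 73.4, 76.6 and 98.6 CPM (log2 difference -1.37, SE 0.26, adjusted p = 0.0431). Ccnb1ip1, a ubiquitin ligase of cyclin B, stood at 157, 168 and 72.8 against 23.2, 20.9 and 8.57 CPM (log2 difference -3.12, adjusted p = 0.00835). Tpm3-rs7, a processed copy of a tropomyosin gene whose reads can be shared with its parent, stood at 120, 48.3 and 97.0 CPM against 0 in each knockout library. Its log2 difference was also below 0 in fibroblasts, at -6.11, and in endothelial cells, at -6.03. So were those of Ccnb1ip1 (-2.47 and -2.13), Ifi27l2a (-1.84 and -1.63) and Tspan4 (-1.07 and -0.49), without passing the threshold there. That of Mmp13 was 1.13 in fibroblasts and -0.45 in endothelial cells. Ddx3y is given above. Mmp13 stood at 54.6, 122 and 243 against 0, 0 and 21.4 CPM (adjusted p = 0.0497), but only 7 members held a UMI of it and 1 cell gave 53.2% of them. Without wild type library 1, or without knockout library 2, none of these calls remained but that of Ddx3y in the second case. The barcodes of at most 100 UMIs held Ifi27l2a at 308 CPM, above every library of members.

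**Figure D4:**
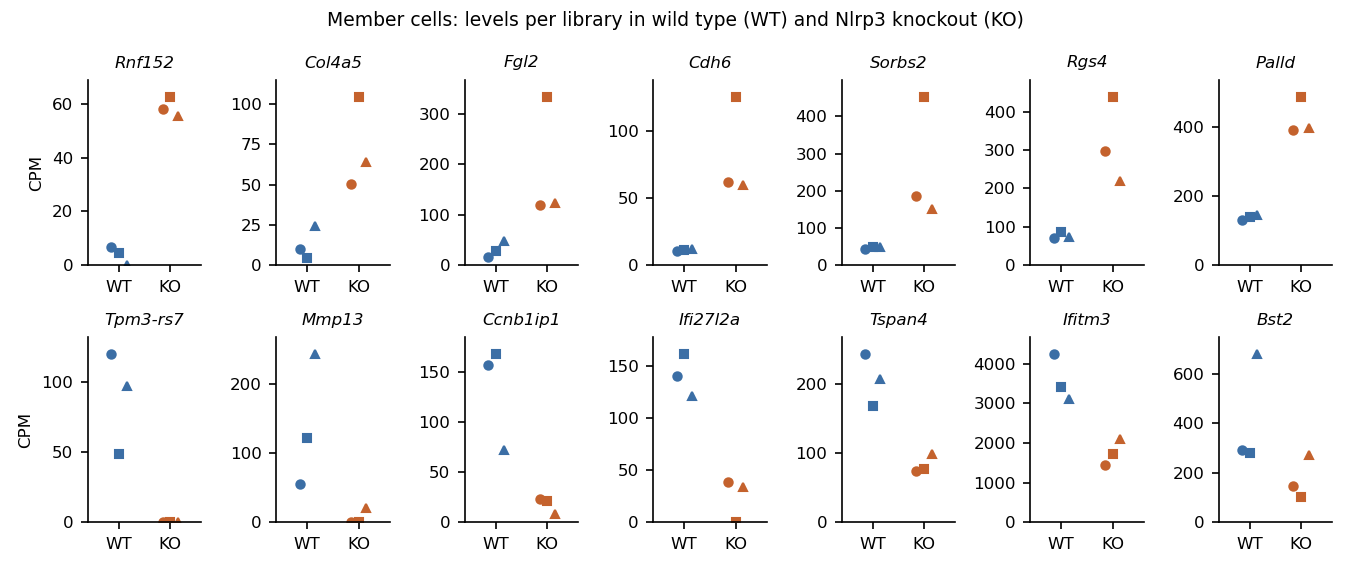
CPM of the members in each wild type (WT, blue) and knockout (KO, orange) library for 12 genes called between genotypes and for Ifitm3 and Bst2, 2 interferon-stimulated genes that missed the threshold; each point is 1 library and each axis starts at 0. Rgs4 lies at 71.7 to 85.2 CPM in the wild type and 219 to 439 in the knockout. The 12 called genes were chosen for not overlapping between the groups. Ifitm3 and Bst2 do not overlap either, which holds for 19.7% of all genes.

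On the 885 cells without the limit on Postn, Aspn and Prg4, an alternative chosen after seeing the data, the directions of the 15 genes were the same and most calls were not. Of 9965 genes tested there, 7 rose and 6 fell by edgeR's test, and 4 of these were among the 15, namely Xist, Ddx3y, Tpm3-rs7 and Gm8797. The log2 difference of Rgs4 was 0.84 (adjusted p = 0.229), that of Palld 0.74 (adjusted p = 0.310) and that of Sorbs2 1.75 (adjusted p = 0.183). For Ifi27l2a it was -1.91 (adjusted p = 0.275) and for Mmp13 -0.55 (adjusted p = 0.733). The other 11 calls were made on the members as selected and not on the wider set.

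Of the contractile genes only Sorbs2 passed, and its endothelial median of 165.6 CPM was above its levels in the wild type members. Of 23 contractile genes outside the rule 19 were tested, 1 was called higher and 0 lower, where 0.373% of all genes were called. Of the 19, 15 had a log2 difference above 0, with a median of 0.59 beside 0.03 over all genes tested, and in 4 of the 19 the groups did not overlap, near the 19.7% over all genes. At an unadjusted p of 0.05, 9 of the 19 were higher and 0 lower, beside 342 and 315 of all 4025. The list, Acta2 and Myh11 included, summed to 21762, 15586 and 25864 CPM in the wild type and to 19600, 38349 and 27358 in the knockout, with overlap. Smtn, smoothelin, stood at 27.3, 43.7 and 48.5 CPM in the wild type and 100.5, 258 and 111 in the knockout, without overlap (edgeR adjusted p = 0.0757). Tagln stood at 2845, 1593 and 3868 against 3610, 6384 and 4696 CPM, and Lmod1, an actin nucleator of smooth muscle, at 64.9, 87.5 and 121 against 100.5, 299 and 176, both with overlapping groups. Des, Actg2, Ppp1r14a and Cald1 had log2 differences below 0. Of the immediate-early and dissociation genes, 21 of 23 had differences above 0, with a median of 0.59 and none called. At an unadjusted p of 0.05, 12 of the 23 were higher and 0 lower. Their part in the contractile values was not tested.

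The genes that rose were also read within each end. They had been chosen for not overlapping in sums that include these same cells, and several stood far higher in the Myh11-rich than in the other end (Cdh6 at 86.6 against 0 CPM), so their separation there adds no evidence. In the Myh11-rich cells Rgs4 stood at 63.1, 112 and 48.0 CPM in the wild type and 329.6, 597 and 234 in the knockout. Sorbs2 stood at 78.9, 138 and 64.0 against 354, 708 and 269, and Palld at 166, 241 and 176 against 611, 675 and 556. Tagln, at 5067, 3720 and 4993 against 6069, 9911 and 8211, and Smtn, at 31.6, 86.1 and 64.0 against 169, 354 and 165, did not overlap, whereas Cnn1 did. In the Myh11-negative cells Cdh6 had no UMI in any library, and Rgs4 overlapped, at 15.6, 92.7 and 209.5 against 162, 67.6 and 105. These values come from 6 to 18 and from 2 to 20 cells per library and are descriptions. How many of all genes separate the groups within an end was not counted, so the separation of Tagln and Smtn has no background beside it.

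**Figure D5:**
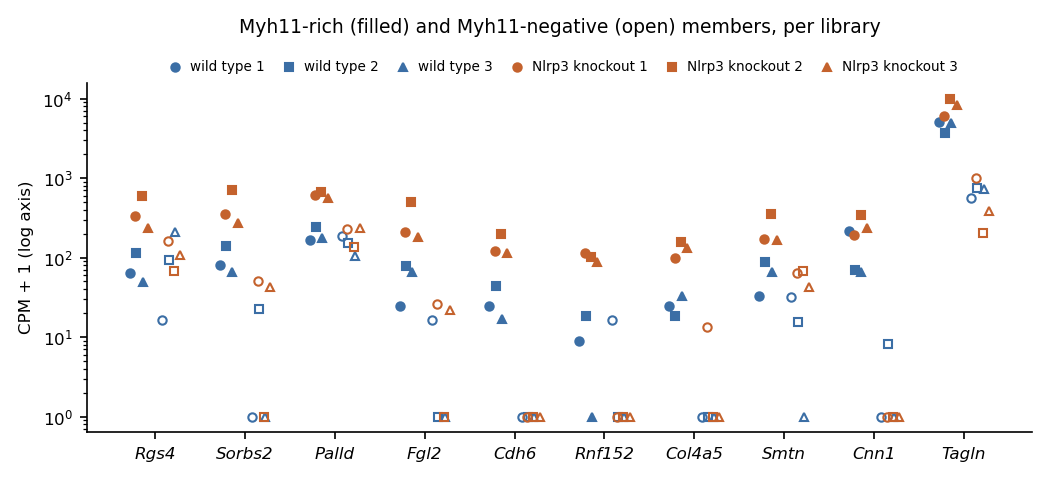
CPM + 1 on a log axis of 10 genes in the Myh11-rich (filled) and Myh11-negative (open) members of each library, wild type in blue and knockout in orange; each point is 1 library and points at 1 hold no UMI. The filled orange points lie above the filled blue points for every gene but Cnn1, as for Rgs4 with 234 to 597 against 48.0 to 112 CPM. Rgs4, Sorbs2, Palld, Fgl2, Cdh6, Rnf152 and Col4a5 were chosen for not overlapping in sums that include these cells.

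Pericyte genes and the pathways that hold mural cells to the vessel showed few differences past the threshold. Of 17 pericyte genes tested 1, Rgs4, was called higher and 0 lower, where 0.373% of all genes were called. Their median log2 difference was -0.15. At an unadjusted p of 0.05, 1 was higher and 4 lower, beside 342 and 315 of all 4025. Cox4i2 stood at 410, 361 and 279 CPM against 205, 209 and 180.0, without overlap (edgeR adjusted p = 0.0972), and Vtn, vitronectin, at 283, 237 and 84.9 against 69.6, 55.7 and 167. None of the 8 tested Notch genes passed (median 0.28). Jag1, the Notch ligand of mural cells, stood at 68.3, 62.2 and 133 CPM against 174, 195 and 171, without overlap (adjusted p = 0.0891). None of the 14 genes of the PDGF and TGF-beta pathway passed (median 0.21), with Pdgfrb at 546, 550 and 655 against 645, 822 and 716 CPM. None of the 7 tested genes of vessel and mural cell signalling passed (median 0.39), among them Angpt2, a Tie2 ligand, at 78.5, 34.5 and 84.9 against 61.8, 83.6 and 146 CPM.

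Receptors and channels of vascular tone were also called in neither direction, 0 of 16 tested with a median of 0.23. In 7 of the 16 the groups did not overlap, beside 19.7% of all genes. At an unadjusted p of 0.05, 3 were higher and 0 lower, beside 342 and 315 of all 4025. Itpr1, the calcium release channel opened by inositol trisphosphate, stood at 58.1, 57.5 and 60.6 CPM against 147, 181 and 133, without overlap (edgeR adjusted p = 0.0662). Pde5a, the phosphodiesterase that breaks down cyclic GMP, stood at 99.0, 99.0 and 97.0 against 151, 202 and 219, without overlap (adjusted p = 0.127). Ednra, the endothelin receptor, stood at 236, 228 and 255 against 186, 209 and 227 CPM, also without overlap (adjusted p = 0.550).

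Of the genes on both matrix lists only Col4a5 passed; Mmp13, a collagenase on neither list, is given above. Of 18 basement membrane genes tested, Col4a5 was higher and 0 were lower, with a median of 0.01, where 0.373% of all genes were called. Col4a1, a collagen IV chain, stood at 2442, 1959 and 2474 CPM against 1786, 1998 and 2524. None of 28 interstitial matrix genes passed, with a median of 0.04. The interstitial list summed to 17283 to 36207 CPM in members and to 16885 in leukocytes, and the barcodes of at most 100 UMIs held Col1a1 at 8527 CPM. The part of free RNA in these levels was not tested. Timp1, an inhibitor of matrix proteases, stood at 560, 619 and 788 CPM against 317, 390 and 167, without overlap (edgeR adjusted p = 0.0770). Eln stood at 41.0, 64.5 and 534 against 1028, 877 and 518 CPM (edgeR adjusted p = 0.127). The groups overlapped through wild type library 3 alone, the highest wild type value, and 39.5% of the Eln UMIs came from 1 cell.

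Of 5 interferon-stimulated genes tested, 1 was called, Ifi27l2a, which was lower in the knockout, where 0.373% of all genes were called. The 14 genes of the list summed to 5133, 4475 and 4268 CPM in the wild type and to 1809, 2130 and 2635 in the knockout, so the groups did not overlap; the sum was not tested. Ifitm3, an antiviral membrane protein, gave most of this and did not pass, at 4242, 3409 and 3116 against 1446, 1720 and 2104 CPM (log2 difference -1.12, SE 0.23, edgeR adjusted p = 0.0605). Bst2, tetherin, stood at 290.3, 281 and 679 against 147, 104 and 270 CPM, without overlap (adjusted p = 0.145). All 5 tested genes had log2 differences below 0, with a median of -1.12. In the interaction tests given below, 0 of 14 genes of the list passed against fibroblasts and 0 of 14 against endothelial cells. There, 0.537% and 0.188% of all genes passed. The log2 difference of Ifi27l2a was -1.84 in fibroblasts and -1.63 in endothelial cells. Within the Myh11-rich cells Ifitm3 stood at 3773, 2997 and 3025 against 989, 653 and 1510 CPM, without overlap, as in the sums that include these same cells. Within the Myh11-negative cells it stood at 4879, 4344 and 943 against 1474, 4394 and 2824, with overlap. Bst2 overlapped at both ends, at 292, 146 and 768 against 113, 33.2 and 234 CPM in the Myh11-rich and at 405, 571 and 105 against 162, 473 and 358 in the Myh11-negative cells.

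Of the inflammatory genes, none passed. None of 11 tested genes of the IL-1 and NF-kappaB pathway was called (median 0.10), and Il1r1, the receptor for interleukin 1, stood at 232, 214 and 255 CPM against 189, 216 and 351. The 26 genes of that list summed to 1656, 1531 and 1516 CPM in the wild type and to 2076, 1685 and 1804 in the knockout, without overlap, and this sum was not tested either. Of the highest, in knockout library 1, Il1b gave 375 CPM, against 0 to 17.1 in the other libraries and a median of 607 in leukocytes. That library was also the highest in macrophage markers, whose part in the sum was not tested. None of 13 tested chemokine and adhesion genes was called (median -0.02). Cxcl1, a neutrophil attractant, stood at 437, 258 and 291 against 475, 369 and 189 CPM. Cxcl2 stood at 126, 87.5 and 12.1 against 1391, 278 and 21.4 CPM, the highest again in knockout library 1. The barcodes of at most 100 UMIs held Cxcl2 at 2143 CPM. Il6 stood at 54.6, 32.2 and 72.8 against 112, 425 and 90.0 CPM, without overlap (edgeR adjusted p = 0.127), and 27.9% of its UMIs came from 1 cell. None of 16 cell cycle genes (median -0.32) and none of 13 respiration and hypoxia genes (median -0.33) passed.

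Whether the genotype difference in mural cells departed from that in neighbouring cells was tested as an interaction, with the library as a block. Against 8722 fibroblasts, 59 genes were higher and 15 lower of 13789, or 0.537%, and 9 of 23 tested contractile genes were among those higher. For Tagln the interaction was 1.5 (SE 0.21, edgeR adjusted p = 8.3e-10), where the fibroblasts' own log2 difference was -0.32. For Lmod1 it was 2.37 (adjusted p = 0.00211), and for Sorbs2 2.27 (adjusted p = 7.2e-04). Against 2558 endothelial cells, 9 were higher and 13 lower of 11733, or 0.188%, with Sorbs2, Palld and Smtn among those higher and 6 of 30 interstitial matrix genes among those lower. Rgs4 passed in neither (1.00, adjusted p = 0.149 against fibroblasts and 0.42, adjusted p = 1.0 against endothelial cells). Of the 15 genes called in the members, only Fgl2, Sorbs2, Palld and Mmp13 passed in either. For the rest, no departure from these neighbouring cells was detected. The fit gave 1 dispersion to both classes although the sums of members held 9 to 51 cells and those of fibroblasts 810 to 2249. Without knockout library 2 the counts were 29 against fibroblasts and 10 against endothelial cells, the Tagln call was lost, at 0.49, and none of the 9 contractile calls against fibroblasts remained. Against fibroblasts the count was 36 without wild type library 2, and against endothelial cells it was 52, 54 and 88 without wild type library 1, knockout library 1 and knockout library 3.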

How the data were processed

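The authors deposited 10x 3′ v3 gene by barcode matrices of UMI counts, not normalized, for 3 wild type and 3 Nlrp3 knockout libraries. The submitters' processing notes name Cell Ranger 2.1.1 and mm10, and the matrix headers name version 4. Library totals were 97042713 to 134901999 UMIs. The members and gene lists were chosen with earlier results of these data known. Doublets were scored with Scrublet in scanpy 1.11.5 and left in. Its automatic call marked 26 of 22048 barcodes in knockout library 1 and had not worked there, so removal of the top-scored barcodes, which took 12 members, was an alternative. Counts of the members were summed per library and tested with edgeR 4.0.16 (quasi-likelihood, TMM, filterByExpr, R 4.3.3), with Benjamini-Hochberg adjustment over 4033 genes before the 8 genes of the rule among them were set aside; for interactions the library was a block. DESeq2 1.42.0 was an alternative. Shares were compared by exact two-sided permutation tests, except that of Myh11-rich cells. Named genes were the called ones with a mean of at least 20 CPM, no overlap between groups and no predicted symbol, at most 10 each way, the listed genes, and the 15 genes with the largest ratio each way between the ends. The study's methods call its samples independent replicates, of pooled entheses; p-values measure the spread between libraries. Scripts were tested on simulated data.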

Additional observations from a re-analysis of the deposited data

Results flagged for a closer look

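The genotype difference of several genes in mural cells departed from that in another class by a test of the interaction itself (edgeR, log2 scale, mural minus the other class, 6 libraries). Against fibroblasts it was 1.83 for Fgl2, 2.27 for Sorbs2, 1.25 for Palld and -6.0 for Mmp13. Among the other contractile genes it was 1.5 for Tagln, 1.07 for Myl9, 0.97 for Tpm2, 1.84 for Cnn1, 1.09 for Mylk, 2.37 for Lmod1, 1.18 for Des and 1.44 for Smtn. Of the contractile genes only Sorbs2 was called between genotypes in the members themselves. There the log2 difference of Des was below 0, at 512, 479 and 291 CPM in the wild type against 232, 292 and 476 in the knockout. The fibroblast median of Des was 7.5 CPM. Against endothelial cells the interaction was 1.52 for Sorbs2, 1.36 for Palld, 1.74 for Smtn and -5.23 for Mmp13. With any 1 library left out each kept its sign. Against fibroblasts the values ranged from 1.52 to 2.17 for Fgl2, 1.85 to 2.49 for Sorbs2, 0.992 to 1.4 for Palld and 0.935 to 1.76 for Smtn. Against endothelial cells they ranged from 1.02 to 1.71 for Sorbs2, 1.13 to 1.48 for Palld and 1.13 to 1.98 for Smtn. Ranges were wider for the other contractile genes against fibroblasts, from 0.131 to 1.76 for Myl9, 0.353 to 1.36 for Tpm2, 0.912 to 3.02 for Cnn1, 0.628 to 1.51 for Mylk, 1.34 to 3.36 for Lmod1, 0.812 to 1.75 for Des and 0.49 to 2.38 for Tagln. For Mmp13 it ranged from -15.2 to -5.11 against fibroblasts and from -12.8 to -3.97 against endothelial cells. Without knockout library 2 none of the 9 contractile calls against fibroblasts remained, and without wild type library 2 only that for Tagln did. The Mylk call was also lost without knockout library 3, and that for Des without wild type library 1 or knockout library 3. The call for Mmp13 held in all 6 such fits against both classes, although 1 cell gave 53.2% of its UMIs. The calls for Palld against both classes were lost without wild type library 3 or knockout library 2, and those for Sorbs2 and Smtn against endothelial cells held in 3 and 2 of 6. The calls for Fgl2 and Smtn against fibroblasts each held in only 1 of 6.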

How the results depend on the processing

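The 15 genes called between genotypes in mural cells became 162 with no filter on low counts, 5 with cells of at least 1000 UMIs, 37 with at least 4000 UMIs, 9 without the top-scored doublets, 66 by DESeq2 and 1 to 154 with 1 library left out. With Postn, Aspn and Prg4 under 0.2% of UMIs, an alternative chosen after seeing the data, 46 were called. DESeq2 gave no adjusted p for 11 of the 15. With the replicate number as a replicate block 15 genes were called, 10 of them shared with the unblocked fit, and on all 885 cells the replicate block gave 10. Deviations of same-numbered libraries correlated at -0.086, -0.048 and 0, and those of differently numbered libraries at -0.093 to 0.143. With 3 libraries per group and sums of few cells, these values cannot decide whether the numbers pair the libraries. The interaction counts ranged over 29 to 75 against fibroblasts and 10 to 88 against endothelial cells with 1 library left out, and the latter was 64 with no filter. The calls of the 15 genes and the interaction calls flagged above were followed together under the alternatives. Of these single-gene values, 257 kept their side of the threshold, 136 lost it and 0 changed sign. Fits that gave a gene no adjusted p were not counted. The share of mural cells (0.0236 percentage points, knockout minus wild type) turned to -0.133 with the 0.2% limit, -0.0251 with at least 4000 UMIs and -0.0011 with at most 5% mitochondrial UMIs, and ranged from -0.0668 to 0.0861 with 1 library left out. Among Ptprc-negative cells (-0.0611) it turned to 0.0551 with no limit on Postn, Aspn and Prg4 and 0.0034 without doublets, and ranged from -0.310 to 0.106, and with the 0.2% limit it was -0.618. The log2 ratio to endothelial cells (-0.006) turned to 0.18 with at least 1000 UMIs, 0.12 without doublets and 0.039 with no Pdgfra UMI, ranged from -0.395 to 0.248, and was -0.409 with the 0.2% limit. The share of Myh11-rich cells (11.8) was -0.0577 unthinned, 16.8 with at least 1 UMI after thinning and 7.51 to 17.4 with 1 library left out, and that of dividing cells (-4.82) was -13.7 unthinned and -8.22 to -1.03. With sign permutation over the replicate block, the tested shares gave p of 0.75 to 1.0, where 0.25 is the smallest possible (exact, n = 3 pairs). The cause of these changes was not tested.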
